A study of Mus musculus with 36 samples.

Results

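The clustered protocadherins are the cell adhesion genes of the Pcdha, Pcdhb and Pcdhg clusters. Every gene whose symbol in the deposited count table is that of a Pcdha, Pcdhb, Pcdhga, Pcdhgb, Pcdhgc or Pcdhac gene was taken, which gave 58 of the 55335 genes in the table. There were 14 alpha, 22 beta and 22 gamma genes. The alpha set held 2 gene IDs with the same symbol, Pcdha11 (ENSMUSG00000007440.10 and ENSMUSG00000102206.5), which were kept apart. Polyadenylated RNA had been sequenced from mouse embryonic stem cells treated with BPK25, a compound that the labels give by code name alone, with the auxin IAA, used to degrade proteins fused to an auxin-inducible degron, or with DMSO, a solvent. Libraries were labelled day 0, 2, 4 or 6, with 3 libraries for each treatment and day. The labels used here do not say which protein carried a tag, whether all libraries came from 1 clone, the doses, or what the day is counted from, and "day 0" libraries exist for BPK25 and IAA too. The series title names the NuRD chromatin remodelling complex and CTCF sites. The labels do not state whether the 3 libraries of a group were grown separately. The p-values here therefore speak for the spread between libraries alone, which may be technical.

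Clustered protocadherins are cadherin-like membrane proteins that bind the same isoform on a neighbouring cell. Neurons use combinations of them as a surface identity code, for example to let the branches of one cell avoid each other. In the alpha and gamma clusters each gene starts with a large variable exon, with its own promoter, that is spliced to constant exons shared by the whole cluster and encoding a common cytoplasmic end. Beta genes consist of a single large exon and have no constant exons. In neurons, promoter choice among the alternate alpha, beta and gamma isoforms is stochastic and depends on CTCF, cohesin and a distant enhancer, while the C-type genes (Pcdhac1, Pcdhac2, Pcdhgc3, Pcdhgc4 and Pcdhgc5) are expressed more uniformly. SMCHD1 and DNA methylation are known to keep many of these promoters silent.

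On GRCm38 (mm10) with the GENCODE M21 annotation, the 3 clusters lie in a row on chromosome 18. The alpha genes span chr18:36930184-37187661, the beta genes chr18:37264938-37524479 and the gamma genes chr18:37661793-37841873, all on the plus strand. All 14 alpha genes have 2860 exonic bases in common, and all 22 gamma genes have 2116. The bases of an alpha gene that no other member holds range between 2346 and 4675, and those of a gamma gene between 1570 and 5508. Beta genes share no bases with each other except Pcdhb21 and Pcdhb22, whose ends overlap.

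The deposited counts of alpha and gamma members were nearly the same gene by gene. Summed over the 36 libraries, 21 of the 22 gamma genes held 11423 to 12006 reads each and Pcdhgc3 held 18913. In the alpha cluster 13 of the 14 genes held 250 to 267 reads and Pcdhac2 held 336. Leaving out Pcdhgc3, the highest and the lowest gamma gene of a library differed by 3.41% to 10.9% of the lower count, with a median of 6.66%. Leaving out Pcdhac2, the 13 alpha genes lay within 2 reads of each other in 35 of the 36 libraries. The counts of a member are therefore mainly 1 common set of reads entered once for every gene of its cluster, and 22 gamma calls are close to 1 call repeated 22 times. For that reason 2 quantities were taken from the counts of each library: the count of the lowest member, which is an upper limit on the reads that touch the constant exons, and each member's count above the lowest member, which holds reads outside the exons common to the cluster. For most members such reads lie in exons of their own. Pcdhgb1 and Pcdhga4 share another 1038 bases with each other, and Pcdhgb4 and Pcdhga8 another 108, so that reads there enter the counts above the lowest member of both genes of the pair.

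**Figure D1:**
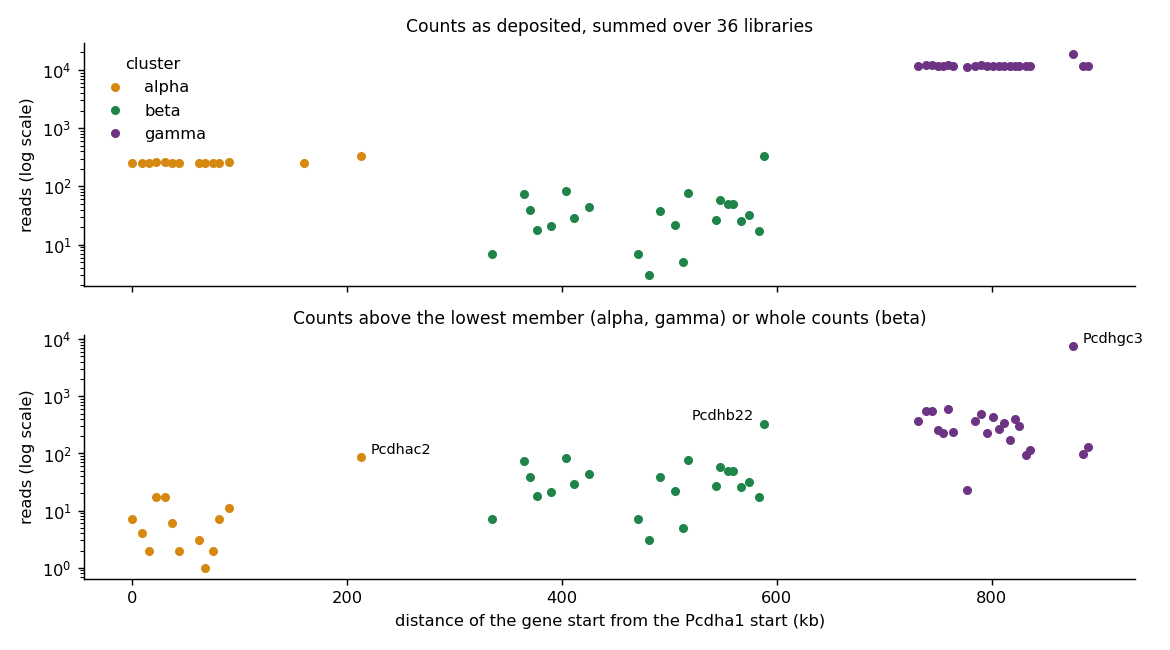
Reads summed over the 36 libraries for each of the 58 genes, placed by the distance of the gene start from the Pcdha1 start in kb (horizontal axis) on a log scale (vertical axis). The upper panel shows the counts as deposited, flat across the alpha and gamma clusters. The lower panel shows alpha and gamma counts above the lowest member and whole beta counts, with Pcdhgc3 (7513), Pcdhb22 (333) and Pcdhac2 (86) the highest of their clusters. Pcdhac1, at 0, is not drawn.

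The gamma cluster was transcribed in these cells, while the reads of most single alpha and beta genes were near the limit of detection. Per kb of constant exon, the lowest gamma member averaged 15.3 CPM (counts in each 1000000 of the TMM-scaled library) over the 36 libraries and the lowest alpha member 0.253. Both are values of a whole cluster. Counts above the lowest alpha member came to at most 0.0785 CPM per kb of a gene's own exons, in Pcdhac2. The 21 beta genes other than Pcdhb22 had a median of 0.0246 CPM per kb, and Pcdhb22 had 0.139. Pcdhgc3 had the highest count of the 22 gamma genes in 36 of 36 libraries. Its count above the lowest member averaged 6.29 CPM per kb of its own exons, while the 19 A-type and B-type gamma genes ranged between 0.0264 and 0.617 with a median of 0.327. The other C-type genes were far lower, Pcdhgc4 at 0.0778 CPM per kb and Pcdhgc5 at 0.0685. Of 13815 reads above the lowest gamma member, 7513 (54.4%) belonged to Pcdhgc3. Pcdhgb2 came next with 606 reads, followed by Pcdhga3 with 559 and Pcdhga2 with 555. Pcdhga6 was the lowest gamma member in 24 of 36 libraries, ties included, so its own reads cannot be told from 0 in those.

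Library totals ranged between 6621288 and 16497799 counts. No 2 replicates were identical, and each of the 36 replicate pairs differed by more than sampling noise (chi-square per degree of freedom 1.36 to 2.90). By root mean square log2 distance over the genes tested, BPK25 lay 0.182, 0.196 and 0.166 from DMSO at days 0, 2 and 6 but 0.477 at day 4, and IAA lay 0.419 to 0.583 from DMSO. The labelled cell type was checked on 8 pluripotency genes, whose summed level at days 0, 2, 4 and 6 averaged 3037, 2799, 1068 and 808 CPM in BPK25, 4164, 1533, 839 and 689 CPM in IAA, and 2957, 2779, 1238 and 754 CPM in DMSO (SD 2.85 to 78.8, n = 3 each). These genes fell over the days: 8 of 8 were lower in DMSO at day 6 than at day 0 (29.5% of all genes tested were called lower). The libraries are of mixed cells, so fewer cells of a type and less RNA per cell cannot be told apart.

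Of the 58 genes, 37 had enough counts to be tested (14 alpha, Pcdhb22 alone of the beta genes, and 22 gamma). Tests used edgeR's quasi-likelihood method over 17394 genes with Benjamini-Hochberg adjustment, two-sided, and a gene was called at an adjusted p under 0.05. The ± given with a log2 fold change is an approximate standard error, the absolute fold change over the square root of the F statistic.

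In DMSO, gamma transcripts increased with time, with a larger fold for Pcdhgc3 than for the reads common to the cluster. The lowest gamma member stood at 25.5 ± 1.52 CPM at day 0, 26.9 ± 0.600 at day 2, 34.4 ± 1.04 at day 4 and 33.2 ± 3.47 at day 6 (SD, n = 3 each). In the day 6 libraries it was 37.2, 30.8 and 31.6 CPM, so that the first library was higher than the other 2, and in the day 0 libraries it was 24.1, 25.3 and 27.2, all below day 6. Libraries of these days did not overlap for 65.6% of all genes tested. The difference was 0.38 ± 0.07 on the log2 scale at day 6 (adjusted p = 1.47e-05) and 0.42 ± 0.08 at day 4 (adjusted p = 9.53e-06), while at day 2 it was 0.08 ± 0.08 (adjusted p = 0.667). The Pcdhgc3 count above the lowest member was 27.0, 25.7 and 27.9 CPM at day 6, against 13.5, 14.0 and 12.7 at day 0. Every day 6 library was above every day 0 library, with a log2 difference of 0.98 ± 0.11 (adjusted p = 2.29e-11), and at day 4 the difference was 0.71 ± 0.11 (adjusted p = 8.49e-07). At day 2 it was 0.32 ± 0.12, which did not pass (adjusted p = 0.124). Taken as deposited, 22 of 22 gamma genes were called higher at day 4 and at day 6, where 26% and 33.2% of all genes tested were, and 0 of 22 at day 2, where 1.59% were called higher and 3.85% lower. At day 2 edgeR gave an unadjusted p under 0.05 for Pcdhgc3 (0.0186) and no other gamma gene, and DESeq2 called 0.

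BPK25 gave 3 different outcomes in the gamma cluster over the days. At days 0 and 2 the reads common to the cluster were higher than in DMSO, at day 4 they were lower, and at day 6 no gamma gene was called. At day 0 the lowest gamma member had 30.5, 31.7 and 32.3 CPM in BPK25 and 24.1, 25.3 and 27.2 CPM in DMSO, so the groups did not overlap (log2 0.31 ± 0.08, adjusted p = 0.00784). At day 2 it had 32.5, 31.1 and 30.7 CPM in BPK25 and 27.5, 26.4 and 26.7 CPM in DMSO, again with no overlap (log2 0.23 ± 0.07, adjusted p = 0.0265). At day 4 the order was the opposite, with 25.6, 22.2 and 24.5 CPM in BPK25 and 33.9, 33.7 and 35.5 CPM in DMSO (log2 -0.50 ± 0.07, adjusted p = 8.63e-08). BPK25 at day 4 was the lowest of the 12 groups for this quantity, just under DMSO at day 0. At day 6 BPK25 libraries had 35.4, 37.4 and 37.1 CPM and DMSO libraries 37.2, 30.8 and 31.6, and the groups overlapped through the first DMSO library (log2 0.12 ± 0.07, adjusted p = 0.292). Over all genes tested, the BPK25 and DMSO libraries did not overlap for 24.3% at day 0, 27.8% at day 2 and 57.2% at day 4. Gm38182, another gene model, shares 628 bases with the constant exons. It averaged 24.9, 25.1, 19.4 and 30.2 CPM in BPK25 at days 0, 2, 4 and 6. In DMSO it averaged 19.2, 20.5, 28.0 and 26.1 CPM. Whether the lowest member changed over the whole of the constant exons or at this stretch alone was not tested.

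Pcdhgc3, which holds most of the reads that can be tied to 1 gamma gene, was lower under BPK25 at day 2, when the reads common to the cluster were higher. At day 2 its count above the lowest member was 13.1, 12.2 and 12.2 CPM in BPK25 and 19.1, 14.3 and 16.8 CPM in DMSO, lower in each BPK25 library than in any DMSO library. It fell by 0.42 ± 0.11 on the log2 scale (adjusted p = 0.00808), the opposite direction to the reads common to the cluster. The 2 changes cancelled in the deposited Pcdhgc3 count, which was 43.9 ± 1.48 CPM in BPK25 and 43.6 ± 2.95 CPM in DMSO (SD, n = 3 each; log2 0.01 ± 0.06, adjusted p = 0.932). At day 0 the Pcdhgc3 count above the lowest member was 12.6 ± 0.495 CPM in BPK25 and 13.4 ± 0.663 CPM in DMSO (log2 -0.08 ± 0.12, adjusted p = 0.783). At day 4 it fell together with the lowest member, to 16.4 ± 1.98 CPM in BPK25 against 22.2 ± 2.39 CPM in DMSO (log2 -0.46 ± 0.10, adjusted p = 0.000161). The day 6 level was 28.3 ± 1.87 CPM in BPK25 and 26.8 ± 1.12 CPM in DMSO (log2 0.07 ± 0.08, adjusted p = 0.711).

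In deposited counts, 21 of 22 gamma genes were called higher in BPK25 at day 0 (3.32% of all genes tested), the exception being Pcdhgc3 (log2 0.18 ± 0.06, adjusted p = 0.079). At day 2, 19 of 22 were called higher (6.4% of all genes), without Pcdhga4, Pcdhga8 and Pcdhgc3. At day 4, 22 of 22 were called lower (26.8% of all genes), with log2 fold changes between -0.52 and -0.46. At day 6 edgeR called 0 of 22, with an unadjusted p under 0.05 for 6, and DESeq2 called 0 (4.01% of all genes were called higher and 3.08% lower). The day 0 and day 2 calls rest on small differences. Without the first DMSO library 0 members were called at day 0 and the lowest gamma member had an adjusted p of 0.0636 (log2 0.27), and without the second DMSO library 10 members were called. At day 2, DESeq2 called 1 member instead of 19, and leaving out single libraries gave 0 to 12 calls, with 0 without the first BPK25, the second DMSO or the third DMSO library, 6 without the second BPK25, 9 without the third BPK25 and 12 without the first DMSO library. The rise of the lowest member at day 2 also lost its call by DESeq2 (adjusted p = 0.0586) and in 4 of 6 fits without 1 library (adjusted p up to 0.127). The fall of the Pcdhgc3 count at day 2 lost its call only without the first DMSO library (log2 -0.33, adjusted p = 0.0775). Without the first DMSO library at day 6, 7 gamma genes were called higher in BPK25.

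**Figure D2:**
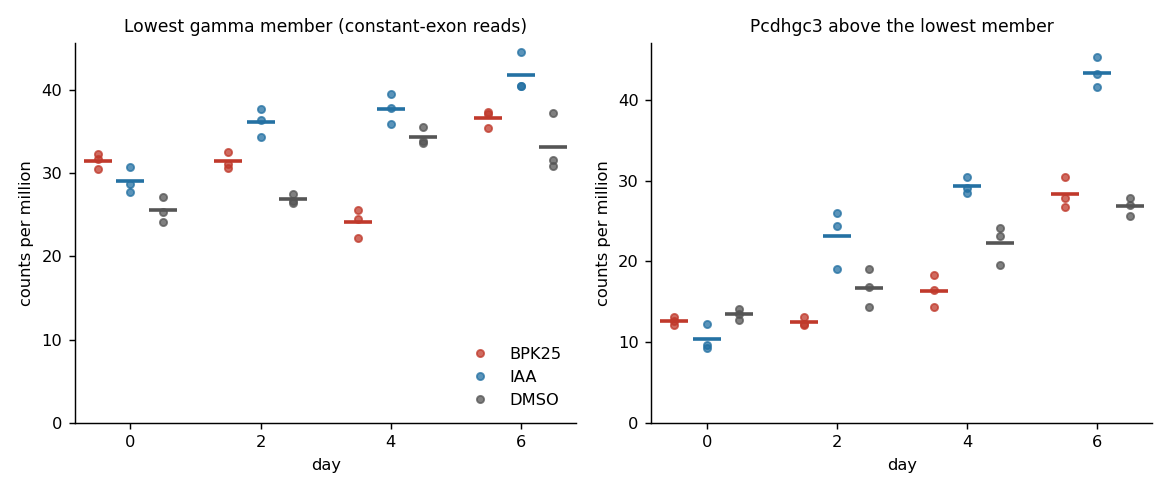
CPM (vertical axes, from 0) by day (horizontal axes) for the lowest gamma member, left, and for the Pcdhgc3 count above it, right. Points are libraries, 3 for each treatment and day, and bars are their means. BPK25 at day 4 averaged 24.1 CPM on the left, the lowest of the 12 groups, and IAA at day 6 averaged 43.4 CPM on the right, the highest.

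IAA gave higher Pcdhgc3 levels than DMSO from day 2 onward, and more reads common to the cluster at days 2 and 6. At day 2 the lowest gamma member had 36.3, 34.3 and 37.7 CPM in IAA and 27.5, 26.4 and 26.7 CPM in DMSO (log2 0.43 ± 0.07, adjusted p = 1.84e-06). At day 4 it was 37.7 ± 1.77 CPM in IAA and 34.4 ± 1.04 CPM in DMSO (SD, n = 3 each), which did not pass (log2 0.14 ± 0.07, adjusted p = 0.0731). At day 6 it was 40.4, 40.4 and 44.6 CPM in IAA and 37.2, 30.8 and 31.6 CPM in DMSO, with every IAA library above every DMSO library (log2 0.32 ± 0.06, adjusted p = 3.38e-05). Pcdhgc3 was raised on all 3 of these days. Its count above the lowest member was 25.9, 24.4 and 19.0 CPM in IAA and 19.1, 14.3 and 16.8 CPM in DMSO at day 2, where 1 IAA library lay just below the highest DMSO library (log2 0.45 ± 0.10, adjusted p = 0.000208). At day 4 it was 29.1, 30.5 and 28.4 CPM in IAA and 23.1, 19.5 and 24.1 CPM in DMSO (log2 0.41 ± 0.09, adjusted p = 0.000121). At day 6 it reached 45.3, 41.6 and 43.2 CPM in IAA against 27.0, 25.7 and 27.9 CPM in DMSO, a clear gap between the groups (log2 0.70 ± 0.08, adjusted p = 1.39e-10). The IAA and DMSO libraries did not overlap for 58.8%, 58.1% and 63.2% of all genes tested at days 2, 4 and 6, and for 52% at day 0.

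At day 0 the 2 quantities moved apart in IAA as they did in BPK25 at day 2. The lowest gamma member had 28.7, 27.7 and 30.7 CPM in IAA and 24.1, 25.3 and 27.2 CPM in DMSO, a narrow gap (log2 0.21 ± 0.08, adjusted p = 0.0344). The Pcdhgc3 count above it had 9.61, 12.3 and 9.31 CPM in IAA and 13.5, 14.0 and 12.7 CPM in DMSO (log2 -0.34 ± 0.13, adjusted p = 0.0361). Both calls are near the threshold, and the first was lost in 5 and the second in 4 of 6 fits without 1 library. The first was also lost with RLE size factors (adjusted p = 0.0506) and by DESeq2 (adjusted p = 0.107). Gm38182 averaged 22.7 CPM in IAA and 19.2 CPM in DMSO at day 0. In deposited counts Pcdhga4 alone of the 22 gamma genes was called at day 0 (log2 0.19, adjusted p = 0.0472; 21.3% of all genes tested were called higher and 23.2% lower), while without the third DMSO library 8 were and without each of the other 5 libraries 0 were. DESeq2 called 0, RLE size factors gave 2 and the libraries compared alone gave 5. At day 2 and at day 6 22 of 22 were called higher (27.5% and 30.6% of all genes), and at day 4 6 of 22 were (25.9%), led by Pcdhgc3 (log2 0.25 ± 0.05, adjusted p = 9.41e-05). Without 1 library, the day 4 count over all members, 7 with Pcdhb22, lay between 2 (without the first or the second DMSO library, or the first IAA library) and 15 (without the third IAA library), with 3 without the second IAA library, and DESeq2 called 2.

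**Figure D3:**
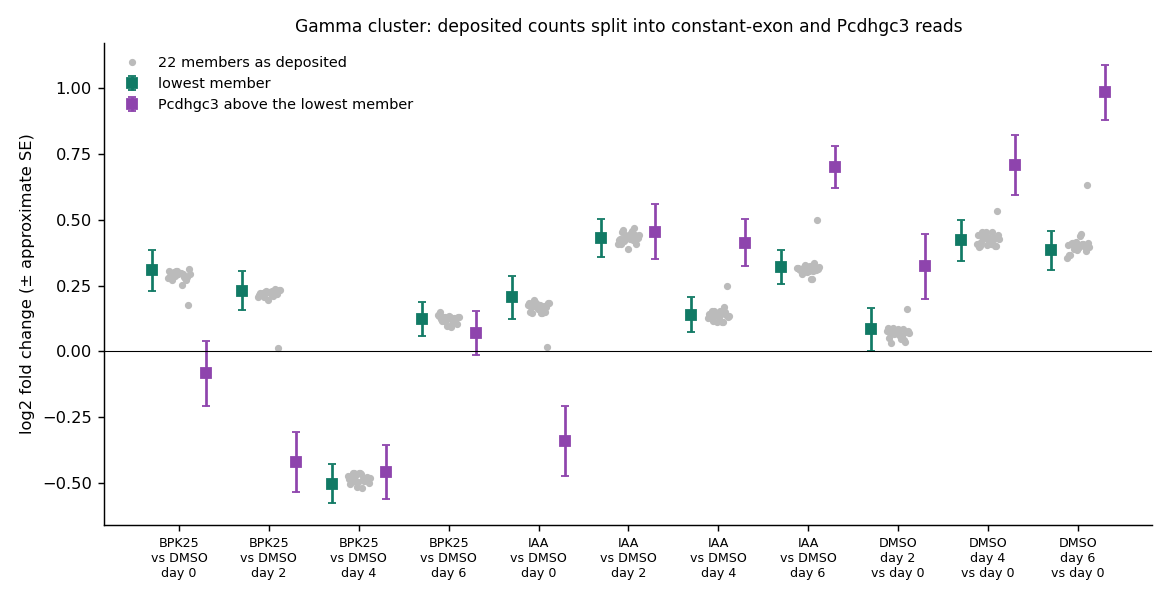
Log2 fold changes (vertical axis) in 11 comparisons (horizontal axis) for the 22 gamma genes as deposited (grey), the lowest gamma member (green) and the Pcdhgc3 count above it (purple), with bars of ± 1 approximate standard error. At BPK25 day 2 and IAA day 0 the purple points (-0.42 and -0.34) lie below 0 and the green points (0.23 and 0.21) above it. In deposited counts Pcdhgc3 is the grey point that stands off from the rest, as at BPK25 day 2 and IAA day 6.

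Set against IAA, BPK25 had fewer gamma reads from day 2 on. At day 2 the lowest gamma member had 31.4 ± 0.984 CPM in BPK25 and 36.1 ± 1.69 CPM in IAA (log2 -0.20 ± 0.07, adjusted p = 0.0100). At day 4, 24.1 ± 1.72 CPM in BPK25 stood against 37.7 ± 1.77 CPM in IAA (log2 -0.64 ± 0.07, adjusted p = 4.72e-11), and at day 6, 36.6 ± 1.07 CPM in BPK25 against 41.8 ± 2.38 CPM in IAA (log2 -0.20 ± 0.07, adjusted p = 0.0100; SD, n = 3 each). The Pcdhgc3 count above the lowest member had larger log2 differences at each of these days, -0.87 ± 0.10, -0.87 ± 0.09 and -0.63 ± 0.08 at days 2, 4 and 6 (adjusted p = 3.94e-10, 3.75e-11 and 6.61e-09). The lowest member lost its call at day 2 without the third BPK25 (adjusted p = 0.0643) or the third IAA library (adjusted p = 0.119), and at day 6 without the first BPK25 (adjusted p = 0.0519) or the third IAA library (adjusted p = 0.103). In deposited counts 22 of 22 gamma genes were called lower in BPK25 at days 2, 4 and 6 (28.4%, 27.1% and 28.8% of all genes tested). Pcdhgc3 was the only gamma gene called at day 0 (higher in BPK25, log2 0.16 ± 0.06, adjusted p = 0.0281; 24.8% of all genes were called higher), and it was not called by DESeq2, with no filter, with only the libraries compared, or without the third BPK25 or the first IAA library. Without the third IAA library, 7 members in place of 23 were called lower at day 2 and 4 in place of 23 at day 6, and without the first BPK25 library 10 were at day 6. These comparisons share BPK25 or IAA libraries with those against DMSO and are not independent of them.

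The effect of each treatment on gamma genes differed between days by a joint test. For BPK25, 22 of 22 gamma genes passed (47.1% of all genes tested), with adjusted p between 2.16e-09 and 5.59e-08. For IAA, 20 of 22 passed (70.1% of all genes), without Pcdhga4 and Pcdhga8. The IAA count was 3 by DESeq2 and 3 to 22 without 1 library. At day 0 it was 9 without the second DMSO library, 4 without the third DMSO library and 5 without the second IAA library. At day 2 it was 3 without the second DMSO library, 7 without the third DMSO library, 13 without the first IAA library and 3 without the third IAA library. At day 4 it was 13 without the first DMSO library, 11 without the third DMSO library and 7 without the third IAA library. The BPK25 count was 22 in each of these fits and by DESeq2. The Pcdhgc3 count above the lowest member passed in both, with adjusted p = 0.00184 for BPK25 and 2.44e-06 for IAA. The lowest gamma member passed with adjusted p = 9.12e-09 for BPK25 and 0.0428 for IAA.

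Relative to the reads common to the cluster, Pcdhgc3 was higher at day 6 than at day 0 in all 3 treatments, with no overlap between the libraries of these days. The Pcdhgc3 count above the lowest member, divided by the lowest member, averaged 0.401, 0.397, 0.685 and 0.774 at days 0, 2, 4 and 6 in BPK25. In IAA it averaged 0.360, 0.642, 0.778 and 1.04, and in DMSO 0.527, 0.622, 0.647 and 0.814. At day 0 the ratio was lower in each of the BPK25 libraries (0.381 to 0.429) and of the IAA libraries (0.303 to 0.442) than in any DMSO library (0.469 to 0.559). At day 2 BPK25 libraries lay between 0.391 and 0.402 and DMSO libraries between 0.543 and 0.693, while IAA libraries (0.504 to 0.713) overlapped DMSO. At day 6 IAA libraries (0.970 to 1.12) lay above DMSO libraries (0.725 to 0.883), and BPK25 libraries (0.751 to 0.814) lay within the DMSO range. With 3 libraries against 3 a two-sided exact permutation test cannot go below p = 0.10. That value was reached in 9 of the 15 comparisons, and none passed after adjustment over the 15 (smallest adjusted p = 0.167). Day 6 against day 0 was among the 15 for DMSO alone and was not tested in BPK25 or IAA. In DMSO the libraries of these days did not overlap for 65.6% of all genes tested. That share was not taken for BPK25 or IAA.

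**Figure D4:**
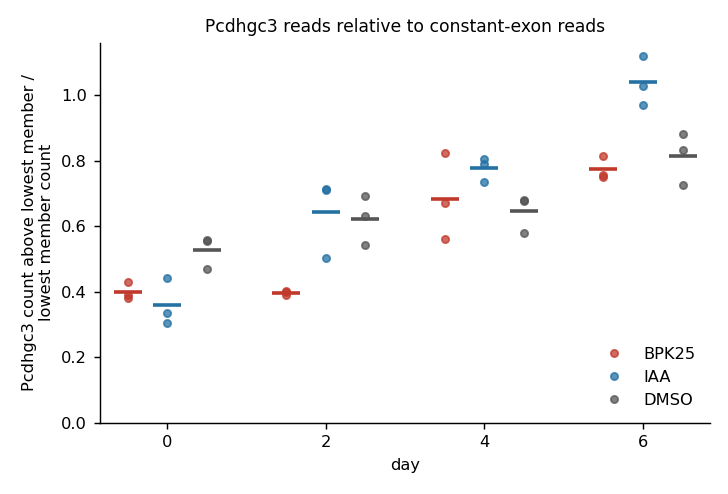
Pcdhgc3 count above the lowest gamma member divided by the count of the lowest gamma member (vertical axis, no unit, from 0) by day (horizontal axis). Points are the 3 libraries of each treatment and day, and bars are their means. BPK25 at day 2 lies between 0.391 and 0.402 and IAA at day 6 between 0.970 and 1.12.

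The alternate gamma isoforms, the A-type and B-type genes whose promoters are chosen stochastically in neurons, could be followed only where they held enough reads of their own. With Pcdhgc3, 17 gamma genes had enough counts above the lowest member to be tested. In DMSO 4 of 17 were called higher at day 4 than at day 0 (25.6% of all features in that fit), and at day 6 3 were called higher (32.4%) and 1 lower (30.4%). Pcdhgb4 led the B-type genes, with 2.45 ± 0.197 CPM above the lowest member at day 6 against 0.924 ± 0.390 at day 0 (SD, n = 3 each; log2 1.36 ± 0.32, adjusted p = 0.000276). Pcdhgb2 had 3.06 ± 0.490 CPM at day 6 and 1.51 ± 0.285 at day 0 (log2 0.97 ± 0.26, adjusted p = 0.00138), whereas Pcdhga1 fell (log2 -1.20 ± 0.46, adjusted p = 0.0201). Summed over the 19 A-type and B-type genes, counts above the lowest member came to 20.9 ± 1.49 CPM in DMSO at day 6 against 15.4 ± 1.98 CPM at day 0.

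In IAA at day 2, 6 of the 17 were called higher than in DMSO (27.4% of all features) and 1, Pcdhga8, was lower (28% of all features; log2 -1.45 ± 0.53, adjusted p = 0.0173). The summed A-type and B-type level was 17.9, 19.5 and 19.2 CPM in IAA and 13.9, 12.3 and 13.7 CPM in DMSO, so each IAA library was above each DMSO library. Pcdhgb6 differed most, with 11, 12 and 12 reads above the lowest member in the IAA libraries against 1, 2 and 1 in the DMSO libraries (log2 2.84 ± 0.68, adjusted p = 0.000384). Pcdhgb6 also passed at day 4 (log2 0.96 ± 0.39, adjusted p = 0.0368; 26.1% of all features were called higher) and day 6 (log2 0.92 ± 0.35, adjusted p = 0.0233; 30.9%). Pcdhga2, Pcdhga3, Pcdhgb2 and Pcdhgb4 were the others called higher at day 2 beside Pcdhgc3, with log2 fold changes between 0.88 and 1.21. At day 0 Pcdhgb4 was lower in IAA, with 2, 4 and 1 reads above the lowest member against 10, 6 and 4 in DMSO (log2 -1.67 ± 0.55, adjusted p = 0.0116; 21.4% of all features were called lower). Under BPK25 at day 2, 14 of the 17 had negative log2 fold changes, with a median of -0.14, while the deposited counts of the 22 gamma genes had a median of 0.22. In IAA at day 0, 13 of the 17 were negative, with a median of -0.34, against a median of 0.17 in deposited counts. All 17 are counted from the same lowest member, so these signs are not independent. Under BPK25 the A-type and B-type calls were Pcdhgb4 (log2 -0.99 ± 0.32, adjusted p = 0.00733) and Pcdhga7 (log2 -0.96 ± 0.36, adjusted p = 0.0208), both lower at day 4 (27.2% of all features were called lower). The C-type genes Pcdhgc4 and Pcdhgc5 held 99 and 132 reads above the lowest member in all 36 libraries, too few to test. The IAA day 2 calls of Pcdhga3, Pcdhgb4 and Pcdhgb6 and the DMSO day 6 calls of Pcdhgb2 and Pcdhgb4 held with RLE size factors, by DESeq2, with a replicate term and without each library. The other A-type and B-type calls named here were each lost without at least 1 library. In BPK25 at day 4, Pcdhgb4 was lost without the third DMSO library (adjusted p = 0.0614), and Pcdhga7 without the first or the third BPK25 or the first DMSO library (adjusted p up to 0.206). In IAA at day 0, Pcdhgb4 was lost without the first DMSO library (adjusted p = 0.120). At day 2 in IAA, Pcdhga2 was lost without the second or the third DMSO library or the first or the third IAA library (adjusted p up to 0.103). On that day Pcdhgb2 was lost without the second or the third DMSO or the second IAA library (adjusted p up to 0.135), and Pcdhga8 without the third DMSO or the first IAA library (adjusted p up to 0.166). The Pcdhgb6 calls in IAA were lost by DESeq2 at day 4 (adjusted p = 0.0755) and day 6 (adjusted p = 0.0597), and without each library but the second IAA library at day 4 (adjusted p up to 0.205). At day 6 Pcdhgb6 was lost without the first or the second DMSO or the first IAA library (adjusted p up to 0.248). In DMSO at day 6, Pcdhga1 was lost without the first day 6 library or the first or the second day 0 library (adjusted p up to 0.177). Counts above the lowest member also lose as many reads as the lowest member holds of its own, so they are lower limits. Their error may differ from what the model assumes, mainly for small values.

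Beta genes were scarce, and Pcdhb22, the only one with enough reads for a test, was higher at day 6 than at day 0 in DMSO and higher in IAA than in DMSO from day 2 on. The 22 genes together held 1056 reads in 36 libraries, 333 of them in Pcdhb22, the last gene of the cluster and the nearest to the gamma genes. In DMSO, 15 of the 22 beta genes had a read at day 0, 14 at day 2, 20 at day 4 and 22 at day 6, a tally that also depends on depth, since the DMSO libraries held 21920268 counts in all at day 0, 24870796 at day 2, 27496348 at day 4 and 36693388 at day 6. Pcdhb22 had 19, 18 and 10 reads in the DMSO libraries of day 6 against 3, 0 and 2 at day 0, which is 1.27 ± 0.455 against 0.240 ± 0.214 CPM (SD, n = 3 each; log2 2.34 ± 0.54, adjusted p = 0.000205). At day 4 it had 6, 7 and 5 reads in DMSO, which did not pass against day 0 (log2 1.43 ± 0.65, adjusted p = 0.0633) but was called without the first day 0 library (log2 2.08).

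In IAA, Pcdhb22 was higher than in DMSO at 3 of the 4 days. At day 2 it had 2, 12 and 12 reads in IAA and 1, 1 and 3 in DMSO, so that 1 IAA library lay within the DMSO range (log2 2.12 ± 0.59, adjusted p = 0.00211). At day 4 it had 28, 27 and 29 reads in IAA and 6, 7 and 5 in DMSO, a clear gap, at 2.47 ± 0.169 CPM in IAA and 0.660 ± 0.0789 in DMSO (log2 1.90 ± 0.34, adjusted p = 7.18e-06). At day 6 it had 31, 25 and 26 reads in IAA and 19, 18 and 10 in DMSO, at 3.11 ± 0.146 CPM in IAA and 1.27 ± 0.455 in DMSO (log2 1.32 ± 0.28, adjusted p = 5.77e-05). At day 0 it had 2, 4 and 2 reads in IAA and 3, 0 and 2 in DMSO (adjusted p = 0.685). Under BPK25, Pcdhb22 was not called at any day against DMSO. It had 5, 3 and 4 reads in BPK25 and 6, 7 and 5 in DMSO at day 4 (log2 -0.71 ± 0.52, adjusted p = 0.261), and 11, 5 and 19 reads in BPK25 and 19, 18 and 10 in DMSO at day 6 (adjusted p = 0.979). Against IAA it was lower in BPK25 at day 2 (log2 -1.86 ± 0.52, adjusted p = 0.00213), day 4 (log2 -2.61 ± 0.37, adjusted p = 6.97e-08) and day 6 (log2 -1.36 ± 0.30, adjusted p = 0.000106). Whether the treatment effect on Pcdhb22 differed between days did not pass for BPK25 (adjusted p = 0.573) or IAA (adjusted p = 0.300).

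The other 21 beta genes were too low for a test and are described by their sum. It was 4.85, 5.17 and 2.79 CPM in IAA and 2.78, 4.06 and 2.48 CPM in DMSO at day 6, where the groups overlapped, and 2.72, 3.06 and 2.21 CPM in IAA and 2.12, 1.72 and 2.20 CPM in DMSO at day 4, where they only just did not. In BPK25 it was 2.71, 3.74 and 2.93 CPM at day 6 and 1.66, 2.50 and 1.66 CPM at day 4, overlapping DMSO on both days. Over time in DMSO it stood at 1.04 ± 0.357, 1.25 ± 0.220, 2.01 ± 0.260 and 3.11 ± 0.837 CPM at days 0, 2, 4 and 6, and every day 6 library lay above every day 0 library. Single genes of the sum did not all do so. Pcdhb2 had 5 reads at day 6 and 4 at day 0 in DMSO, a ratio of rates of 0.700 (interval 0.151 to 3.53), and all but 2 of the 21 intervals included 1. The 3 with most reads were Pcdhb6 (82), Pcdhb14 (77) and Pcdhb2 (73). Pcdhb6 had 16 reads in IAA and 12 in DMSO at day 6 over 3 libraries, a ratio of rates of 1.92 with an exact 95% interval of 0.854 to 4.45 that covers counting error only. Pcdhb14 had 12 reads in IAA and 7 in DMSO (ratio 2.47, interval 0.898 to 7.41), and Pcdhb2 4 reads in IAA and 5 in DMSO (ratio 1.15, interval 0.229 to 5.36). With no filter on low counts, edgeR called Pcdhb17 (adjusted p = 0.0498) and Pcdhb18 (adjusted p = 0.0439) higher in DMSO at day 6 than at day 0. These were chosen after their values were seen. Pcdhb17 had 15 reads at day 6 and 1 at day 0, and Pcdhb18 had 9 at day 6 and 0 at day 0.

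**Figure D5:**
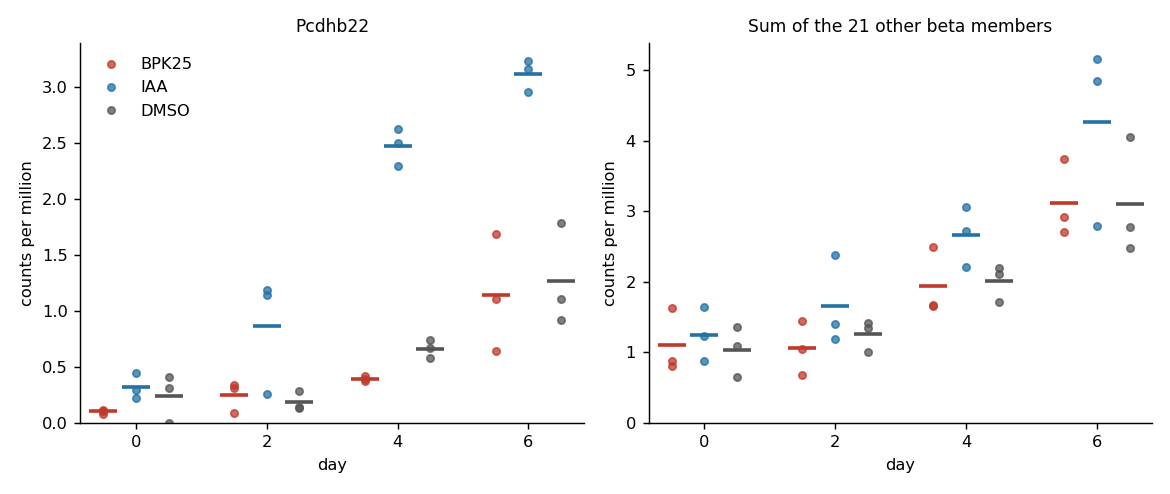
CPM (vertical axes, from 0) by day (horizontal axes) for Pcdhb22, left, and the sum of the 21 other beta genes, right. Points are the 3 libraries of each treatment and day, and bars are their means. Pcdhb22 in IAA at day 4 averaged 2.47 CPM, above the 0.660 CPM of DMSO, and the sums on the right overlap between IAA and DMSO at day 6.

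Alpha genes stayed low throughout, between 0.391 and 1.08 CPM as group means of the 13 genes other than Pcdhac2. Pcdha1, Pcdha2, Pcdha3, Pcdha4, Pcdha5, Pcdha6, Pcdha7, Pcdha8, Pcdha9, both Pcdha11 IDs, Pcdha12 and Pcdhac1 have almost no reads of their own, at most 17 above the lowest member over 36 libraries and 0 for Pcdhac1. Pcdhac2, a C-type gene, held 86 of the 165 alpha reads above the lowest member. By edgeR 0 alpha genes were called against DMSO at any day or between days in DMSO, 0 had an unadjusted p under 0.05 there, and DESeq2 called 0. In BPK25 against IAA at day 4, Pcdhac2 had 21, 13 and 12 reads in BPK25 and 11, 5 and 9 in IAA, at 1.52 ± 0.356 CPM in BPK25 and 0.735 ± 0.285 in IAA (log2 1.03 ± 0.38, adjusted p = 0.019; 27.2% of all genes tested were called higher). The other 13 alpha genes had log2 fold changes between 0.71 and 0.90 and did not pass. Leaving out the third BPK25 library, 10 alpha genes were called higher there, and without the first or the second BPK25 library, or the second or the third IAA library, 0 were. Against DMSO, the median log2 fold change of the 14 alpha genes was -0.17, 0.23, 0.11 and 0.38 in BPK25 at days 0, 2, 4 and 6. In IAA it was -0.05, -0.18, -0.69 and -0.46. At day 4 in IAA the 14 genes lay between -0.85 and -0.60, with a smallest adjusted p of 0.0896. No alpha gene passed the joint test between days under BPK25 (smallest adjusted p = 0.853) or IAA (smallest adjusted p = 0.433). At 250 reads in 36 libraries for the lowest alpha member, small differences were not detectable.

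Factors known to bind or silence these clusters, and the genes beside the clusters, were counted in the same comparisons. Of 23 architecture and silencing factors, 1 was called higher and 1 lower in BPK25 at day 0 (3.32% and 4.58% of all genes tested), 0 and 1 at day 2 (6.4% and 7.12%), 6 and 12 at day 4 (26.2% and 26.8%), and 1 and 1 at day 6 (4.01% and 3.08%), with a median log2 fold change of -0.10 at day 4 beside -0.01 over all genes tested. At day 4 Ctcf rose (log2 0.42, adjusted p = 1.63e-12) and Smchd1, which encodes a silencer of the clusters, fell (log2 -0.49, adjusted p = 6.95e-13). Smchd1 was also lower in BPK25 at day 0 (log2 -0.16) and day 2 (log2 -0.17). In IAA, 8 factors were higher and 8 lower at day 0 (21.3% and 23.2% of all genes), 10 and 6 at day 2 (27.5% and 27.9%), 8 and 6 at day 4 (25.9% each way), and 8 and 8 at day 6 (30.6% and 30%). Ctcf differed by 0.00, 0.26, -0.04 and -0.13, called at days 2 and 6. Of 19 flanking genes 17 were tested, and in BPK25 1, 1, 3 and 1 were called higher and 0, 0, 7 and 1 lower at days 0, 2, 4 and 6, while in IAA 2, 5, 3 and 6 were higher and 7, 6, 5 and 4 lower, beside the same shares of all genes. Taf7, which lies between the beta and gamma clusters and encodes a TFIID subunit, differed by -0.03 between BPK25 and DMSO at day 4, without a call, and in IAA by 0.18, -0.39 and -0.24 at days 2, 4 and 6, each called. At day 0 Taf7 averaged 357 CPM in BPK25, 349 in IAA and 324 in DMSO. It averaged 293 CPM in BPK25 and 274 in DMSO at day 2, and 331 and 300 CPM at day 6. Its neighbour Slc25a2 held 116 reads in 36 libraries and was not tested.

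The non-clustered protocadherins, single genes elsewhere in the genome, were measured beside the clustered ones. Of 12, 7 were tested. In DMSO at day 6, 5 of 7 were higher than at day 0 and 0 lower (33.2% of all genes tested were called higher and 29.5% lower), with a median log2 fold change of 1.55 beside 0.03 over all genes tested. In BPK25 at day 4, Pcdh1 (log2 1.72) and Pcdh10 (log2 1.93) were higher than in DMSO while 22 of 22 gamma genes were lower, and Pcdh7 (log2 -1.35) and Pcdh19 (log2 -0.42) were lower. In IAA at day 6, Pcdh1 (log2 0.95), Pcdh17 (log2 1.23) and Pcdh18 (log2 1.86) were higher, and Pcdh7, Pcdh9 and Pcdh19 were lower.

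Markers of other cells and of pluripotency moved with some of these results and not with others. The summed level of 10 fibroblast markers, of the kind the labelled feeder cells make, averaged 165, 151, 163 and 389 CPM at days 0, 2, 4 and 6 in BPK25, 130, 237, 358 and 536 CPM in IAA, and 163, 147, 240 and 362 CPM in DMSO. At day 4, where gamma genes were lower in BPK25, this sum ranged between 160 and 167 CPM in BPK25 and 235 and 244 CPM in DMSO. At days 2 and 6, where gamma genes were higher in IAA, it ranged between 231 and 245 CPM and between 534 and 538 CPM in IAA, against 144 to 149 CPM and 360 to 365 CPM in DMSO. The lowest gamma member was also higher in BPK25 at days 0 and 2, where the sum averaged 165 and 151 CPM against 163 and 147 CPM in DMSO. It was higher in IAA at day 0, where the sum was lower (130 against 163 CPM). At day 4 the sum was higher in IAA (358 against 240 CPM), as was Pcdhgc3, but the lowest gamma member did not pass. Of the 9 tested, 5 were lower and 1, Thy1, higher in BPK25 at day 4 (26.8% and 26.2% of all genes tested), and 6 were higher and 2, Thy1 and Dcn, lower in IAA at day 6 (30.6% and 30%). At IAA day 2, 3 were higher and 4 lower (27.5% and 27.9%). In DMSO 8 of 9 were higher at day 6 than at day 0 (33.2%). Most of that sum was Pdgfra and Fbn1, which are not limited to fibroblasts. Among the collagen and matrix genes at day 4, Col3a1 had 19 reads in BPK25 and 83 in DMSO (log2 -2.24, adjusted p = 3.15e-07). Col1a2 had 164 in BPK25 and 282 in DMSO (log2 -0.92, adjusted p = 4.53e-07). Fbn1 was lower by less (log2 -0.16, adjusted p = 0.0113), and Dcn had 0 reads in BPK25 and 18 in DMSO (adjusted p = 9.43e-05). Not called were Lum with 0 in BPK25 and 3 in DMSO (adjusted p = 0.0995), Postn with 6 and 9 (adjusted p = 0.432), and Col1a1 with 126 and 144 (adjusted p = 0.101). The surface marker Thy1 had 83 in BPK25 and 38 in DMSO (adjusted p = 0.0113).

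The summed level of 10 neural markers averaged 191, 182, 124 and 165 CPM at days 0, 2, 4 and 6 in BPK25, 226, 124, 149 and 178 CPM in IAA, and 171, 166, 139 and 157 CPM in DMSO. Its members went both ways. In IAA at day 6, 4 were higher than in DMSO and 3 lower (30.6% and 30% of all genes tested). The higher ones were Dcx (277 reads in IAA and 97 in DMSO, log2 2.03), Nes (log2 1.08), Elavl4 (log2 0.97) and Neurod1 (log2 0.93). Stmn2 (197 reads in IAA and 609 in DMSO, log2 -1.09), Sox1 (76 reads in IAA and 445 in DMSO, log2 -2.02) and Pax6 (log2 -0.56) were lower. At day 6 against day 0 in DMSO, 5 rose and 2 fell (33.2% and 29.5%), with Dcx at 97 reads at day 6 and 1 at day 0 and Stmn2 lower by a log2 fold change of -2.58. The 8 pluripotency genes were 8 of 8 lower in IAA at day 2 (27.9%), and 6 lower and 1 higher in IAA at day 4 (25.9% each way). At day 6 in IAA, 5 were lower and 2 higher (30% and 30.6%). On each of these days Pcdhb22 and Pcdhgc3 were higher in IAA. At day 0 in IAA, 7 were higher and 0 lower (21.3% and 23.2%). In BPK25 at day 4, 5 were lower and 1 higher (26.8% and 26.2%). The part of these cells and of the pluripotency genes in the protocadherin results was not tested.

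Some other gene models overlap the members. On the plus strand, the strand of the gamma genes, 4 models share bases with the constant exons and so overlap all 22 gamma genes. Gm38182 shares 628 of these bases and held 8963 reads in the 36 libraries, Gm42416 shares 446 and held 8680, and Gm37013 and Gm37388 share 91 each and held 2541 and 2538. The count of the lowest gamma member, 11400 reads in all, cannot be told apart from reads of these models. BC037039, antisense to Pcdhgc3, held 111 reads in all 36 libraries against 7513 of Pcdhgc3 above the lowest member, and Gm26672, antisense to Pcdhga10, Pcdhgb7, Pcdhga11 and Pcdhga12, held 805. Since the counting is not stated to use strand, reads of these cannot be told from those of the members they overlap.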

How the data were processed

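Per the labels' protocols, stem cells were grown with LIF, typically on irradiated fibroblast feeders, and RNA libraries were made with SMARTer chemistry. Raw counts of reads per gene were deposited by the authors as 1 table covering 36 libraries. The submitters' processing notes name HISAT2 2.1.0 (alignment to mm10), featureCounts 2.0.1 (counting), FastQC 0.11.7 and DESeq2. Strand, annotation release and the handling of reads over several genes are settings not given in the sources used here. Such reads appear to have been counted for every gene they overlap, since alpha and gamma members were nearly equal in each library.

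From those counts 17394 genes passed filterByExpr over 12 groups, with a minimum count of 10 and a total of at least 15. Scaling was TMM, and CPM used the scaled totals. A single edgeR quasi-likelihood fit of the 12 groups (glmQLFit, glmQLFTest) gave the 15 comparisons and 2 joint tests, with Benjamini-Hochberg adjustment. A second fit over 17377 features replaced alpha and gamma members by the lowest member of the library and each member's count above it, and took another library as TMM reference. Exon bases came from GENCODE M21. The fit was checked on simulated counts. Versions were R 4.3.3, edgeR 4.0.16 and DESeq2 1.42.0. Named genes were every alpha and beta member tested, the gamma C-type members, the 3 highest and the lowest gamma members by CPM, the 3 gamma members with most reads of their own, the 3 untested members with most counts, and up to 5 genes of each list by p, with Ctcf, Smchd1, Taf7 and Slc25a2. Further gamma members were named after their values were seen. Members and lists were chosen with earlier results of these data known. Alternatives were RLE size factors, DESeq2, filters that were absent or stricter (1 CPM, 3 libraries), fits of the compared libraries alone, a replicate term, leaving out each library, and counts above the lowest member. Members' sequences are not printed here.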

Additional observations from a re-analysis of the deposited data

Results flagged for a closer look

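The results below were picked out because the effect of a treatment differed between days by the joint edgeR test, and no explanation is weighed. For BPK25 the test called 22 gamma genes. The adjusted p was 1.36e-08 for Pcdhga2, 1.89e-08 for Pcdhga3, 1.11e-08 for Pcdhga6, 1.99e-08 for Pcdhgb2, 8.34e-09 for Pcdhgc3, 8.59e-09 for Pcdhgc4 and 3.13e-08 for Pcdhgc5. It was 9.12e-09 for the lowest gamma member and 0.00184 for the Pcdhgc3 count above it. Since the gamma genes share most of their reads, these values stand for about 1 common change and the separate course of Pcdhgc3. On counts above the lowest member, Pcdhga11 (adjusted p = 0.0462) and Pcdhga4 (adjusted p = 0.04996) also passed for BPK25, both near the threshold.

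For IAA the same test called 20 gamma genes. The adjusted p was 0.019 for Pcdhga2, 0.00838 for Pcdhga3, 0.0315 for Pcdhga6, 0.0125 for Pcdhgb2, 9.94e-06 for Pcdhgc3, 0.0321 for Pcdhgc4 and 0.0284 for Pcdhgc5. It was 0.0428 for the lowest gamma member, near the threshold, and 2.44e-06 for the Pcdhgc3 count above it. The counts above the lowest member of Pcdhgb4 (adjusted p = 0.000641), Pcdhgb2 (0.0155), Pcdhgb6 (0.0302) and Pcdhga3 (0.0320) passed as well.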

How the results depend on the processing

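Counts are of members called. With RLE size factors, 2 were higher in IAA at day 0. When low counts were not filtered, 0 were higher in BPK25 at day 2, 0 in IAA at day 0 and 3 in IAA at day 4; BPK25 against IAA gave 0 higher and 1 lower at day 0 and 7 lower at day 6, and the IAA joint test called 1. With only the libraries compared, 11 were higher in BPK25 at day 2, 5 in IAA at day 0 and 0 in BPK25 against IAA at day 0, and the IAA joint test called 13. By DESeq2 the same results gave 1, 0, 0 and 3, and 2 were higher in IAA at day 4. With counts above the lowest member, BPK25 gave 0 higher at day 0, 0 higher and 1 lower at day 2, and 3 lower at day 4. IAA gave 0 higher and 2 lower at day 0, 7 higher and 1 lower at day 2, and 3 higher at days 4 and 6. DMSO gave 4 higher at day 4, and 4 higher and 1 lower at day 6. BPK25 against IAA gave 9 lower at day 2, 0 higher and 4 lower at day 4 and 2 lower at day 6, and the joint tests called 3 for BPK25 and 5 for IAA. These tallies leave out the lowest gamma member, which holds the common reads. It was called in several of these comparisons and passed both joint tests. In BPK25 at day 2 and in IAA at day 0, this setting gave lower calls where deposited counts gave higher ones, but for different genes. The lower calls were Pcdhgc3 in both and Pcdhgb4 in IAA, none of which was called in the deposited counts of that comparison. Under the other settings 0 called fold changes changed sign. The cause of the other shifts was not tested.

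Without 1 library, members higher in BPK25 ranged between 0 and 21 at day 0, 0 and 12 at day 2, and 0 and 7 at day 6, and members higher in IAA between 0 and 8 at day 0 and 2 and 15 at day 4. BPK25 against IAA ranged between 0 and 1 higher at day 0, 0 and 10 higher at day 4, 7 and 23 lower at day 2, and 4 and 23 lower at day 6, and the IAA joint test between 3 and 22.

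With the base set at the median of the other 21 gamma members, an alternative chosen after seeing the data, the Pcdhgc3 fall in IAA at day 0 was not called (log2 -0.32, adjusted p = 0.0543). The other alternatives for the lowest member and for single counts above it were also chosen after seeing the data. Libraries with the same number did not deviate together (correlation -0.0815 to 0.0775 over 198 pairs), so no pairing by number was seen. This cannot exclude that such libraries were grown or handled together. A replicate block left every count within 1.5 times, with 8 members higher in IAA at day 4 and 21 in the IAA joint test. Depth limits the alpha and beta results, where beta genes other than Pcdhb22 held at most 82 reads in all 36 libraries and the lowest alpha member 250.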
